A study of Mus musculus with 21 samples.

Results

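Quadriceps muscle of endurance-trained mice, taken 72 h after their last exhaustive run, was compared with quadriceps of sedentary mice. The comparison rests on 3 trained 72 h and 3 sedentary libraries of the 21 in the series, and on the 11708 of 53738 gene symbols with a mean of at least 1 TPM (transcripts scaled to a fixed total per library after correction for length) over these 6 libraries. All animals were male C57/Bl6 wild-type mice aged 22 to 26 weeks at sacrifice. The trained mice had running wheels in their cages from the age of 12 weeks, for 12 weeks, and their last treadmill test to exhaustion was the bout after which muscle was taken. The sedentary mice had neither the training nor the run. Untrained mice at 72 h did the same kind of treadmill test to exhaustion without wheel training, and trained mice at 6 h were taken earlier after theirs. These groups, also of 3 libraries each, are given below where they show which differences trained 72 h muscle did not share with them. Training and the run 72 h before sacrifice cannot be told apart in the comparison with sedentary muscle alone. The sources used here give neither the hour of day at which muscle was taken nor whether the wheels stayed in the cages after the run.

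Muscle cells, like nearly all cells, hold a circadian clock. Its activators, BMAL1 (gene Arntl) and CLOCK, bind E-box sequences and switch on the Per, Cry and Nr1d genes, whose products then repress the activators or their genes. Output factors of the PAR bZIP family (Dbp, Tef, Hlf) bind D-boxes, and RORs and REV-ERBs (the Nr1d genes) compete for ROR elements. Skeletal muscle is also defined by its fibre types, from slow fibres with Myh7 through Myh2 and Myh1 to the fastest fibres with Myh4, and endurance training is known to move fibres along this series. At the sarcomere's Z-disc and in the I-band, proteins such as ANKRD2 and CSRP3 sense stretch and load.

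Of 25 called protein-coding genes, Per1, Ciart, Usp2, Myl3 and Tceal7 had an E-box within 500 bases before their annotated start. Per2 had a D-box. Such elements are found before genes that rose and before genes that fell. The stretches below precede called clock genes, their relative Per3, and Myl3 and Nr1d1 as genes with lower values in trained muscle. They were read from the GRCm39 genome on the strand of the gene, with the element in capitals. The E-box was searched as CACGTG and the D-box as TTATGTAA or TTACGTAA, on both strands. ROR elements (TAGGTCA or TGGGTCA) and the cAMP response element (TGACGTCA) were searched in the same way.
Per1 (chr11:68989234-68989263, + strand, E-box): accccttaacgaCACGTGggccctcaattg
Ciart (chr3:95789639-95789668, - strand, E-box): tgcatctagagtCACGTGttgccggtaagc
Ciart (chr3:95789581-95789610, - strand, E-box): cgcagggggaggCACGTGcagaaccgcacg
Ciart (chr3:95789567-95789596, - strand, E-box): cgtgcagaaccgCACGTGtctgggaggggg
Usp2 (chr9:43978148-43978177, + strand, E-box): gtgctttttctcCACGTGgttctctgtata
Myl3 (chr9:110592424-110592453, + strand, E-box): gaagagttgctcCACGTGtgtatgtgtctg
Nr1d1 (chr11:98666509-98666538, - strand, E-box): cagttctccaatCACGTGaagctctcacgt
Per2 (chr1:91387152-91387183, - strand, D-box): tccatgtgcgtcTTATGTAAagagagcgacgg
Per3 (chr4:151129308-151129339, - strand, D-box): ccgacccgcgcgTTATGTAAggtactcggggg
Per3 (chr4:151129261-151129292, - strand, D-box): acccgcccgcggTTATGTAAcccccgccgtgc
The Per1 E-box lay 22 to 17 bases before the start, and Ciart held a further E-box 422 to 417 bases before it. The last 2 Ciart stretches overlap each other. Among called genes an E-box also preceded Tceal7, which fell, and among uncalled clock genes it preceded Cry1, Bhlhe40, Nfil3, Tef and Coq10b. Coq10b also held 2 D-boxes. A ROR element preceded the called Usp2 and Tspan4 and the uncalled Bhlhe41, Dbp and Leo1. The cAMP response element preceded Tcim. An E-box was present in 9.68% of 21757 protein-coding promoters of this length and in 12.2% of those of 9655 tested genes, and a D-box in 2.07% and 1.72%. The remaining called protein-coding genes, Arntl, Hlf, Ankrd2, Myh1 and Tnfrsf12a among them, held none of the searched letters in this window. A match describes the sequence and was not tested for binding.

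The 6 libraries were alike in their overall make-up. Between 11201 and 11632 symbols per library reached 1 TPM. Correlations of log2(TPM + 0.5) among these 6 libraries were 0.911 to 0.932 within the trained 72 h and sedentary groups and 0.907 to 0.930 between them. TPM values keep no read depth, so precision here is the spread between libraries within groups. In the limma fit this spread was pooled over all 7 groups, with 12 residual degrees of freedom. The labels do not say that the libraries came from separate animals, and p-values then measure only that spread, which may be technical. Skeletal muscle markers were high in all 6 libraries, with 10 genes such as Acta1 and Ckm summing to 50310 to 57360 TPM in sedentary and 50590 to 55440 TPM in trained muscle. All 8 neutrophil and all 10 lymphocyte markers stayed below 1 TPM in every library, and 15 macrophage markers summed to 71.7 to 82.2 TPM in sedentary and 72.4 to 79.1 TPM in trained muscle. Adipocyte markers moved with the groups. Their 8 genes summed to 54.3, 72.3 and 72.4 TPM in the sedentary libraries and to 132, 180.4 and 125 TPM in the trained ones (exact permutation test, two-sided p = 0.1, the smallest that 3 against 3 allows). The mitochondrial genome took 42.2% to 46.9% of the TPM in sedentary and 46.7% to 48.0% in trained muscle. The part of either in the results below was not tested.

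Trained muscle at 72 h differed from sedentary muscle in few genes, and the clock genes stood at the head of both directions. Genes were called at an adjusted p below 0.05 (limma, Benjamini-Hochberg over all 11708 genes) and a fold change of at least 1.5 on log2(TPM + 0.5), a scale that understates the change of low genes. By this rule 30 genes were called, 0.256% of those tested, 14 higher and 16 lower. Of these, 25 were protein-coding, 4 were long noncoding RNAs and 1 was a pseudogene. The 3 sedentary and 3 trained libraries did not overlap in any of the 30, while of all tested genes 5.6% had trained libraries wholly above and 13.9% wholly below the sedentary ones. The same libraries gave the calls, so this lack of overlap follows largely from the selection and is no separate support. The split of the calls moved with the scaling: 46.7% were higher as deposited, 72.2% of 36 after median-of-ratios scaling, 58.3% of 48 after quantile normalization, 81.6% of 49 when TPM were rescaled without the mitochondrial genome and the 10 highest genes, and 83.0% of 53 over nuclear protein-coding genes. All 30 genes kept their direction under every alternative and with any 1 library left out. The number of calls fell to 0, with 1097 genes at an unadjusted p below 0.05, when trained 72 h replicate 2 was left out, and to 17, 11 and 14 without sedentary replicates 1, 2 and 3 and 13 without trained 72 h replicate 3. With only the 6 libraries compared in the fit, 17 genes were called and 4 of the 30 were among them. Per1, Per2, Arntl, Tnfrsf12a and 9430073C21Rik kept their call in 5 of the 6 fits that left a library out, all but the one without trained 72 h replicate 2. Ankrd2, Aplnr, Arhgap20, Arhgap24, Hectd2os, Myl3, Pdlim1 and Ppp1r10 kept theirs in 0 of the 6, and Myh1 in 1.

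**Figure D1:**
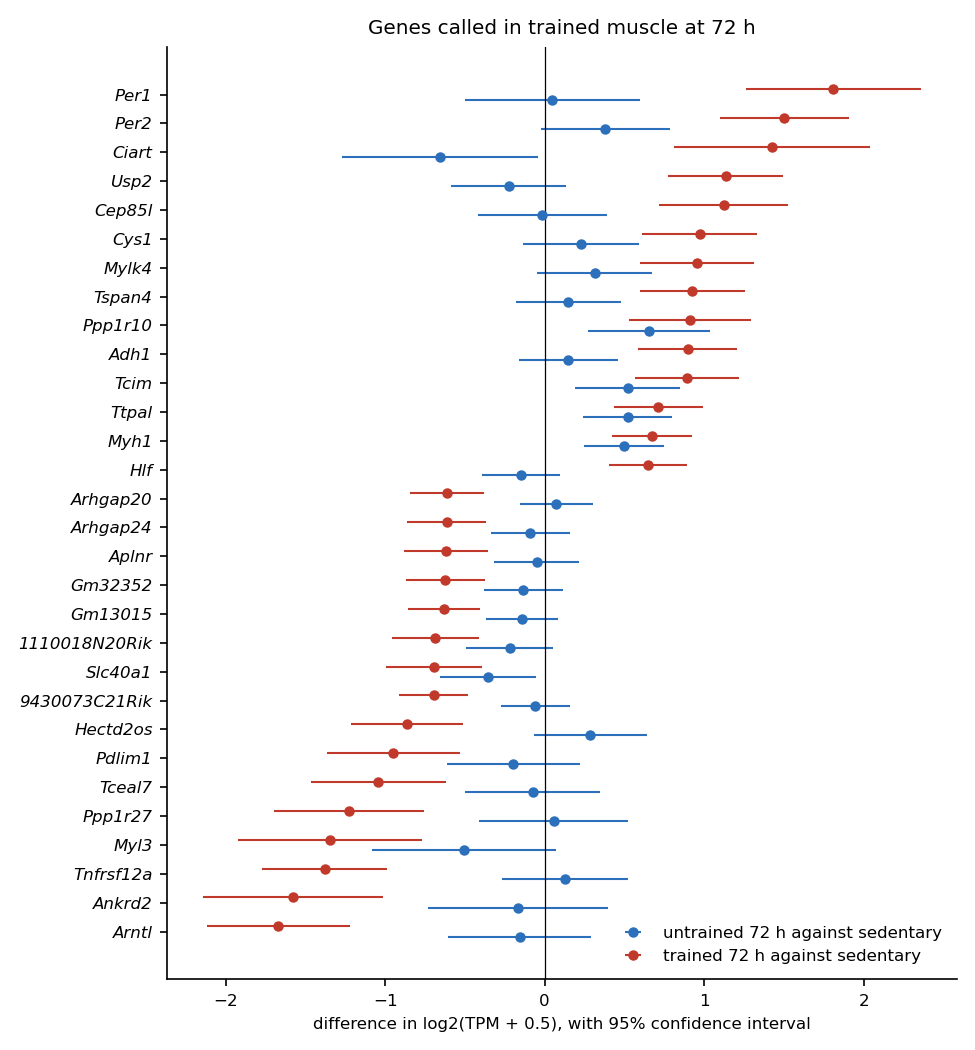
Differences in log2(TPM + 0.5) from sedentary muscle with 95% confidence intervals for the 30 genes called in trained 72 h muscle (red), and the same genes in untrained 72 h muscle (blue). Per1 leads the rises at 1.81 and Arntl the falls at -1.67, while the untrained values of both lie near 0.

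The largest rises among called genes were in the Period genes. Per1, a repressor of BMAL1 and CLOCK, was at 2.11, 1.195 and 2.73 TPM in sedentary muscle and at 6.07, 9.28 and 9.06 TPM in trained muscle. The lowest trained library was above the highest sedentary one by more than the whole spread of the sedentary group. On the log2 scale the rise was 1.81 (SE 0.26, adjusted p = 0.00917). Per2, its partner, rose from 0.616, 0.290 and 0.469 TPM to 1.83, 2.67 and 2.14 TPM, a log2 difference of 1.503 (SE 0.19, adjusted p = 0.00917). The sedentary libraries held Per2 below 1 TPM and the trained ones above it. Per2 therefore passed the filter of a mean of 1 TPM only through the trained libraries, and this split is no separate support. Ciart, which encodes the repressor CHRONO, was at 2.81, 1.503 and 1.59 TPM against 3.55, 6.14 and 9.45 TPM (log2 difference 1.43, SE 0.29, adjusted p = 0.0474). Trained libraries of Ciart were widely spread, and trained replicate 1 lay nearest to the sedentary range.

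The rest of the negative limb was less uniform. Of its 10 tested genes, 3 were called, all higher, and their median log2 difference was 0.39 beside -0.05 over all genes. At an unadjusted p below 0.05, 6 of the 10 were higher and 1 was lower, where 3.33% of all genes were higher and 9.67% lower. Per3 was at 3.13, 2.28 and 2.71 TPM against 4.09, 4.72 and 6.26 TPM, without overlap, and missed the threshold (adjusted p = 0.14). Nr1d1, the REV-ERB alpha repressor of Arntl, ran the other way, with 54.8, 53.8 and 51.2 TPM in sedentary and 37.2, 32.5 and 32.0 TPM in trained muscle. Its libraries did not overlap either (log2 difference -0.65, adjusted p = 0.0791). Its paralog Nr1d2 had means of 16.1 and 20.9 TPM (adjusted p = 0.196), and Cry2, a cryptochrome repressor, 6.07 and 8.28 TPM (adjusted p = 0.239). Bhlhe40 and Bhlhe41, E-box repressors, were at 24.8 and 27.2 TPM and at 9.98 and 11.3 TPM. Cry1 was scattered in both groups, from 2.57 to 20.2 TPM in sedentary and 2.54 to 14.95 TPM in trained muscle.

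Arntl gave the largest fall among called genes. It was at 6.62, 9.20 and 9.02 TPM in sedentary muscle and at 3.13, 1.86 and 1.89 TPM in trained muscle. The lowest sedentary library was above the highest trained one. The log2 difference was -1.67 (SE 0.21, adjusted p = 0.00917), or 3.18-fold lower on that scale. Arntl (chr7:112806152-112914735, + strand) was the 1 called gene among the 6 tested activators and ROR factors. Clock, the partner of BMAL1, was at 2.90, 2.59 and 3.38 TPM against 2.10, 2.13 and 2.00 TPM, without overlap and short of the threshold (log2 difference -0.42, adjusted p = 0.247). Nfil3, listed with the activators although its product represses D-box genes, was at 4.43, 7.01 and 6.29 TPM against 3.73, 2.65 and 2.99 TPM (adjusted p = 0.238). Rora and Rorb, which activate Arntl, had means of 6.19 and 1.18 TPM in sedentary and 6.66 and 1.41 TPM in trained muscle.

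Of the 7 clock output genes tested, Usp2, Tspan4 and Hlf rose and the other 4 did not pass the test. In 6 of the 7 the trained libraries lay wholly above the sedentary ones, against 5.6% of all genes, and in Leo1 wholly below. Usp2, a deubiquitinase whose messenger cycles in many tissues, rose from 24.9, 20.5 and 28.5 TPM to 45.9, 55.3 and 62.9 TPM (log2 difference 1.14, SE 0.17, adjusted p = 0.0114). Tspan4, a tetraspanin, went from 4.16, 3.54 and 4.51 TPM to 6.83, 9.59 and 8.26 TPM (log2 difference 0.93, adjusted p = 0.0291). Both genes had all trained libraries well above the sedentary range. Hlf, a PAR bZIP factor, rose from 1.90, 1.43 and 1.67 TPM to 2.37, 3.38 and 2.98 TPM (adjusted p = 0.0305). Its relatives Dbp and Tef did not reach the threshold. Dbp was at 34.1, 17.3 and 20.9 TPM against 34.7, 46.1 and 49.0 TPM (adjusted p = 0.255), with sedentary replicate 1 almost level with trained replicate 1. Tef had means of 69.5 and 96.0 TPM (adjusted p = 0.203) and Coq10b, for a coenzyme Q binding protein, 4.48 and 8.09 TPM (adjusted p = 0.133). Leo1, of the PAF1 transcription complex, was lower in all trained libraries, with means of 7.22 and 5.39 TPM (adjusted p = 0.124).

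**Figure D2:**
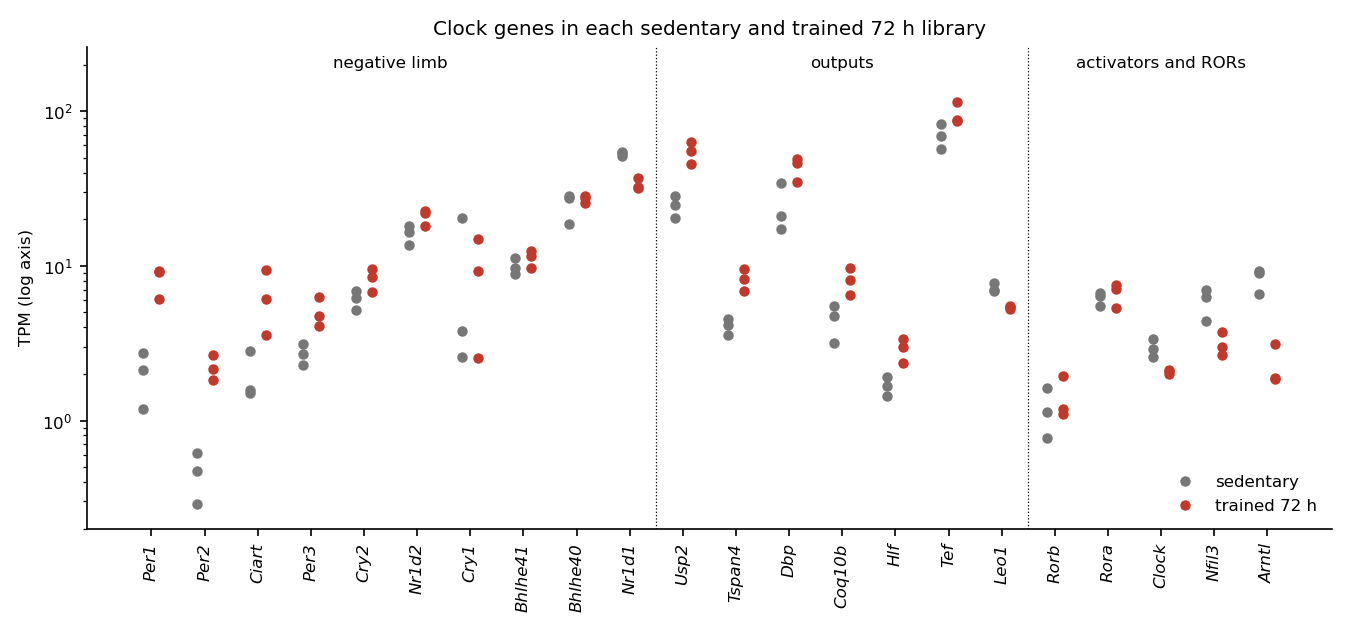
TPM on a log axis of the clock genes described here in each sedentary (grey) and trained 72 h (red) library, ordered within the negative limb, the outputs and the activators by their difference. Per1, Per2 and Usp2 are higher in every trained library and Arntl and Nr1d1 lower in every one, while Cry1 is scattered in both groups.

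Of 11 slow fibre genes tested, Myl3 fell and the other 10 did not pass the test. Bulk muscle was sequenced, so fewer cells or fibres of a type and less RNA per cell cannot be told apart. Myl3, the slow essential light chain of myosin (chr9:110570929-110599396), fell from 155, 166 and 246 TPM to 54.4, 80.5 and 86.8 TPM (log2 difference -1.35, SE 0.27, adjusted p = 0.047). The trained libraries were all below the sedentary ones, and the call of Myl3 was lost whichever library was left out (adjusted p = 0.0717 to 0.145). The median difference of the 11 genes was -0.67 beside -0.05 over all genes. All 11 differences were negative, those of Atp2a2 and Myl6b turning positive without sedentary replicate 3. In untrained 72 h against sedentary muscle the median of the 11 genes was -0.51, beside 0.03 over all genes, so a lower median was not particular to trained muscle. Of the 11 genes 3 had trained libraries wholly below the sedentary ones, where 13.9% of all genes did. Myl2, the slow regulatory light chain, was at 187, 191 and 327 TPM against 70.1, 109 and 126 TPM (log2 difference -1.19, adjusted p = 0.214). Myoz2, a Z-disc protein of slow fibres, had means of 51.1 and 26.02 TPM (adjusted p = 0.0948).

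Sedentary replicate 3 stood apart in the slow genes. Myh7, the slow myosin heavy chain, was at 33.7, 33.2 and 89.4 TPM in sedentary and 28.7, 20.4 and 43.0 TPM in trained muscle, with overlap (log2 difference -0.65, adjusted p = 0.671). The slow troponins Tnnc1, Tnni1 and Tnnt1 reached 106, 47.4 and 131 TPM in sedentary replicate 3, above all other libraries of the comparison, and had log2 differences of -0.96, -0.89 and -0.65 (adjusted p = 0.36, 0.395 and 0.505). Tpm3, slow tropomyosin, and Casq2, the slow calsequestrin, had log2 differences of -0.67 and -0.63 (adjusted p = 0.495 and 0.301). Atp2a2, the slow calcium pump, was at 36.6, 30.1 and 58.8 TPM against 34.3, 34.8 and 40.1 TPM, and the light chain Myl6b had means of 3.46 and 3.20 TPM. The direction of Atp2a2 and Myl6b turned when sedentary replicate 3 was left out. Summed over 12 slow genes the level was 736, 656 and 1217 TPM in sedentary and 356, 436 and 524 TPM in trained muscle (exact permutation p = 0.1).

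Among the fast fibre genes, Myh1 rose and was the 1 heavy chain gene that passed the test. Myh1, the type IIx heavy chain (chr11:67089132-67116631, + strand), was at 828, 805 and 817 TPM in sedentary muscle and 1521, 1279 and 1136 TPM in trained muscle. The sedentary libraries were close together and every trained one was higher (log2 difference 0.67, SE 0.12, adjusted p = 0.0294). Myh2, the type IIa chain, was at 179, 249 and 249 TPM against 99.0, 141 and 109 TPM, all lower, and missed the threshold (log2 difference -0.95, adjusted p = 0.112). Myh4, the type IIb chain, was at 6056, 4463 and 5031 TPM against 4266, 4244 and 4692 TPM (log2 difference -0.23, adjusted p = 0.542). Of the 4 adult heavy chains together, Myh1 made up 11.7%, 14.5% and 13.2% in sedentary and 25.7%, 22.5% and 19% in trained muscle, Myh4 means of 82.4% and 75.1%, and Myh2 3.68% and 1.99% (exact permutation p = 0.1 for each). The share of Myh7 was 0.839% and 0.521%, with overlap (exact permutation p = 0.6). Heavy chain genes share near-identical stretches, so their split is uncertain, and 9430073C21Rik, a noncoding RNA opposite Myh2 and Myh1, fell from 33.4, 36.5 and 36.8 TPM to 20.8, 22.7 and 21.8 TPM (adjusted p = 0.00968). The library kit does not mark strand, so reads of the latter and of the heavy chains cannot be told apart where they overlap.

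None of the other fast fibre genes was called. Of all 15 tested, 1 was called, where 0.256% of all genes were, and 6 had trained libraries wholly below the sedentary ones, where 13.9% of all genes did. Tnnc2 and Tnni2, fast troponins, had means of 27010 and 22980 TPM and of 7684 and 6672 TPM (log2 differences -0.23 and -0.20, adjusted p = 0.0788 and 0.108), and Tnnt3 a log2 difference of -0.14 (adjusted p = 0.283). Tpm1 and Pvalb, for tropomyosin and the calcium buffer parvalbumin, had -0.23 and -0.19 (adjusted p = 0.176 and 0.259). Mybpc2, Casq1 and Actn3, for myosin binding protein C, calsequestrin and the Z-disc actinin of fast fibres, lay at -0.25, -0.13 and -0.18 (adjusted p = 0.449, 0.464 and 0.511). For the light chains Myl1 and Mylpf, the calcium pump Atp2a1 and the Z-disc gene Myoz1 the log2 difference was between -0.05 and -0.02, and its sign changed with the scaling.

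**Figure D3:**
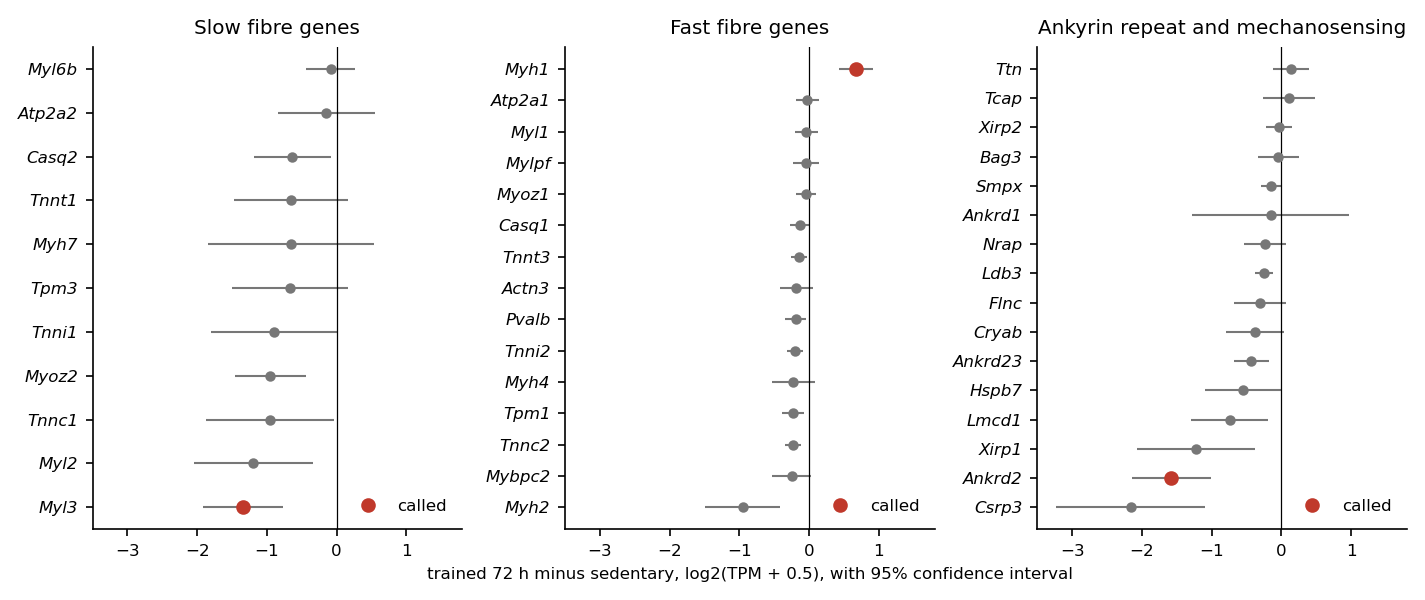
Log2 differences of trained 72 h from sedentary muscle with 95% confidence intervals for slow fibre, fast fibre, and ankyrin repeat and mechanosensing genes, called genes in red. Point estimates of the slow genes lie left of 0 with wide intervals, and those of Atp2a2 and Myl6b change sign without sedentary replicate 3, Myh1 alone is called among the fast genes, and Ankrd2 is called while Csrp3 lies further left with a wider interval.

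Of 16 ankyrin repeat and mechanosensing genes, Ankrd2 fell and the other 15 did not pass the test. ANKRD2 binds titin and is tied to stretch signalling in slow fibres. Ankrd2 (chr19:42024274-42033552, + strand) was at 50.1, 66.2 and 47.1 TPM in sedentary and 17.1, 16.6 and 19.52 TPM in trained muscle. No sedentary library was near the trained ones, and the log2 difference was -1.58 (SE 0.26, adjusted p = 0.0291). Its call was lost in each of the 6 fits with a library left out (adjusted p = 0.0542 to 0.13). Csrp3, muscle LIM protein, was at 48.3, 77.1 and 57.4 TPM against 15.3, 9.40 and 15.1 TPM, a larger log2 difference of -2.16 with a larger error (SE 0.50, adjusted p = 0.0725). Of the 16 genes 10 had trained libraries wholly below the sedentary ones, where 13.9% of all genes did, and the median difference was -0.28 beside -0.05 over all genes.

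The other members of this group missed the threshold, with differences in both directions. Xirp1, an actin-binding repeat protein, was at 14.8, 29.1 and 13.7 TPM against 8.34, 7.07 and 6.94 TPM (log2 difference -1.23, adjusted p = 0.197). Lmcd1, a LIM domain cofactor, Ankrd23, an ankyrin repeat relative of Ankrd2, and Ldb3, a Z-disc protein, had log2 differences of -0.74, -0.44 and -0.24 (adjusted p = 0.228, 0.117 and 0.0892). The small heat shock genes Hspb7 and Cryab were at -0.55 and -0.38 (adjusted p = 0.385 and 0.429), and filamin C (Flnc), Nrap and Smpx at -0.31, -0.24 and -0.14 (adjusted p = 0.49, 0.511 and 0.41). Ttn and Tcap, for titin and its cap, were at 0.14 and 0.11 (adjusted p = 0.681 and 0.833). Ankrd1, the cardiac relative, was low, with means of 2.16 and 1.90 TPM. Xirp2 and the co-chaperone Bag3 had means of 204.6 and 199 TPM and of 24.4 and 23.6 TPM, with a sign that changed with the scaling.

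Tnfrsf12a fell and was the called gene least dependent on the processing. It encodes the receptor of the cytokine TWEAK, which muscle raises on injury or denervation. Tnfrsf12a (chr17:23894416-23896468, - strand) was at 10.8, 10.3 and 9.32 TPM in sedentary and 4.21, 3.52 and 3.09 TPM in trained muscle. The groups were far apart, with a log2 difference of -1.38 (SE 0.18, adjusted p = 0.00917). It alone among the 30 kept its call under all 18 alternatives.

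The remaining rises were of unrelated genes. Mylk4, a myosin light chain kinase family member of striated muscle, rose from 127.5, 107 and 112 TPM to 174, 255 and 254 TPM (log2 difference 0.96, adjusted p = 0.0294). Adh1, an alcohol dehydrogenase, rose from 5.15, 4.27 and 4.88 TPM to 8.25, 9.28 and 10.4 TPM (adjusted p = 0.0255). In both genes the trained libraries lay wholly above the sedentary ones. Cep85l, for a centrosomal protein, rose from 2.73, 2.22 and 2.75 TPM to 5.22, 6.33 and 7.04 TPM (adjusted p = 0.0291). It overlaps Pln on the opposite strand, and Pln itself had means of 1.28 and 0.936 TPM. Tcim, a transcriptional and immune response regulator, had means of 3.13 and 6.23 TPM (adjusted p = 0.0294) and Ppp1r10, a phosphatase 1 targeting subunit, 1.83 and 3.90 TPM (adjusted p = 0.0413). Ttpal and Cys1, for a lipid-transfer family protein and a cilium protein, had means of 1.11 and 2.14 TPM and of 0.707 and 1.89 TPM (adjusted p = 0.032 and 0.0294). With a sedentary mean below 1 TPM, Cys1 passed the filter only through its trained libraries.

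The remaining falls held genes of the sarcomere, signalling and noncoding RNAs. Ppp1r27, a phosphatase 1 regulatory subunit, fell from 68.4, 90.4 and 99.3 TPM to 44.9, 37.8 and 27.5 TPM (log2 difference -1.23, adjusted p = 0.0305), with no overlap. Tceal7 and Pdlim1, the latter a PDZ-LIM protein of actin filaments, had means of 14.5 and 6.86 TPM and of 29.0 and 14.9 TPM (adjusted p = 0.0355 and 0.0499). Slc40a1, the iron exporter ferroportin, fell from a mean of 10.1 TPM to 6.11 TPM (adjusted p = 0.0484), and Aplnr, the apelin receptor, from 2.38 TPM to 1.37 TPM (adjusted p = 0.047). Arhgap24 and Arhgap20, for GTPase-activating proteins, fell from 3.72 to 2.26 TPM and from 4.48 to 2.76 TPM (adjusted p = 0.032 and 0.0303). Hectd2os, antisense of Hectd2, fell from 6.76 to 3.51 TPM (adjusted p = 0.0367). The noncoding 1110018N20Rik, Gm32352 and the pseudogene Gm13015 fell from 2.13 to 1.15, 3.39 to 2.03 and 56.9 to 36.6 TPM (adjusted p = 0.032, 0.032 and 0.0291). Of the 30 called genes 27 have a span, introns included, that overlaps the span of another annotated gene. The same share over all tested genes is not given here, and overlap of exons was not examined. With an unstranded kit, reads from shared bases cannot be assigned by strand.

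Genes of energy metabolism, many of which endurance training is known to raise, gave no call 72 h after the run. None of the 37 nuclear complex I, 42 complex II to V, 18 tricarboxylic acid cycle, 29 fatty acid, 18 glycolysis or 19 glycogen and glucose uptake genes was called by limma, while 1, 0, 2, 2, 1 and 1 of them were higher and 1, 3, 0, 1, 2 and 3 lower at an unadjusted p below 0.05. Over all tested genes 3.33% were higher and 9.67% lower at that threshold. Cs, citrate synthase, was at 177, 173 and 179.9 TPM against 198, 197 and 198 TPM, a small difference without overlap (log2 0.16, adjusted p = 0.0794). Cpt2, for carnitine palmitoyltransferase, was at 16.3, 17.1 and 17.9 TPM against 19.9, 22.2 and 20.4 TPM (log2 0.28, adjusted p = 0.0504). Fabp3, the heart-type fatty acid binding protein, had means of 488 and 315 TPM (log2 -0.63, adjusted p = 0.154). Ugp2, of glycogen synthesis, had means of 186 and 146 TPM (adjusted p = 0.0608), and Ldha, lactate dehydrogenase A, 1500 and 1255 TPM (adjusted p = 0.214). The 13 messengers of the mitochondrial genome summed to 353700, 364700 and 334900 TPM in sedentary and 380200, 389400 and 380800 TPM in trained muscle (exact permutation p = 0.1). None was called and 7 of 13 were higher at an unadjusted p below 0.05 (limma), beside 3.33% of all tested genes. TPM are scaled to a fixed total, so these 13 levels are not separate observations.

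Regulators of mitochondrial genes gave no call either. Ppargc1a, which encodes the coactivator PGC-1alpha, had means of 3.90 and 4.04 TPM (adjusted p = 0.938). Esrrg and Esrra, estrogen-related receptors that drive oxidative genes, had log2 differences of -0.31 and -0.14 (adjusted p = 0.272 and 0.327). Perm1, a muscle regulator downstream of them, was at 38.0, 45.3 and 43.4 TPM against 33.9, 31.4 and 31.5 TPM, all lower (log2 difference -0.38, adjusted p = 0.0484), under the 1.5-fold threshold. Nrip1, a corepressor, and Pparg had log2 differences of 0.63 and 0.72 (adjusted p = 0.145 and 0.204).

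None of 20 calcium handling genes was called by limma, with 1 higher and 4 lower at an unadjusted p below 0.05. Among all tested genes these shares were 3.33% and 9.67%. Sln, for the calcium pump inhibitor sarcolipin, was at 1.49, 1.09 and 2.35 TPM against 5.25, 2.68 and 2.47 TPM, without overlap (log2 difference 0.86, adjusted p = 0.281). Asph, a sarcoplasmic reticulum protein gene, had means of 77.9 and 55.5 TPM (log2 -0.49, adjusted p = 0.032), under the fold threshold. Of 14 angiogenic genes Aplnr was called, where 0.256% of all tested genes were. Vegfa, the vessel growth factor, was at 80.5, 89.3 and 91.5 TPM against 72.2, 63.0 and 60.5 TPM (adjusted p = 0.0529), and its receptor Flt1 had means of 5.45 and 7.31 TPM (adjusted p = 0.112). Cldn5, an endothelial junction gene, had means of 5.94 and 3.00 TPM (adjusted p = 0.16), while the 11 endothelial markers summed to 164 to 208 TPM and 154 to 199 TPM.

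Immediate early genes, which a single run induces within minutes, were not called 72 h later. Of 16 tested, 0 were called by limma and 4 were higher at an unadjusted p below 0.05, with a median log2 difference of 0.31. Over all tested genes 3.33% were higher at that threshold and the median was -0.05. In untrained 72 h against sedentary muscle the median of the list was 0.23, beside 0.03 over all genes, so a higher median was not particular to trained muscle. Ier3 had means of 2.22 and 3.93 TPM (adjusted p = 0.0791), Klf6 3.20 and 6.00 TPM (adjusted p = 0.109), Klf4 2.01 and 3.82 TPM (adjusted p = 0.121) and Cebpb 4.42 and 7.19 TPM (adjusted p = 0.201). Fos was at 0.321, 0.588 and 3.44 TPM against 0.708, 1.67 and 2.27 TPM, and sedentary replicate 3 was the highest of all 6. Jun had means of 8.78 and 7.97 TPM (adjusted p = 0.819), and Klf5 was below the 1 TPM filter. Summed over 24 genes of the list, sedentary replicate 3 reached 88.4 TPM against 60.4 and 57.6 TPM in the other sedentary libraries and 83.2 to 87.4 TPM in trained muscle.

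Stress, matrix and junction genes gave no call by limma. Of 20 collagen and matrix genes 1 was higher and 4 were lower at an unadjusted p below 0.05, of 20 antioxidant genes 1 and 3, of 14 heat shock genes 0 and 0, of 12 neuromuscular junction genes 0 and 1, of 14 atrophy and FOXO genes 1 and 2, and of 11 myogenic regulators 0 and 2. Over all tested genes 3.33% were higher and 9.67% lower at that threshold. Gpx3, the secreted glutathione peroxidase, was at 117, 110.2 and 111 TPM against 64.3, 80.3 and 80.5 TPM, with no overlap (log2 difference -0.59, adjusted p = 0.0525). Fbn1, for fibrillin of elastic microfibrils, had means of 4.04 and 2.49 TPM (adjusted p = 0.164), and Trim63, the atrophy ligase MuRF1, 82.0 and 60.5 TPM (adjusted p = 0.288).

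Across 35 lists with a tested gene, 11 of the 30 called genes were list members and 7 of them were clock genes. In all 23 clock genes were tested, and 0.256% of all tested genes were called. The share of all tested genes that belongs to any list was not taken. The lists were chosen with earlier results of these data known, so these counts are a description. All 7 tested adipocyte markers had positive differences. In 6 the trained libraries lay wholly above the sedentary ones, where 5.6% of all genes did. Yet none of the 7 was called by limma or reached an unadjusted p below 0.05. Scd1 and Cidec, a desaturase and a lipid droplet protein, had means of 23.4 and 58.7 TPM and of 3.52 and 7.95 TPM (adjusted p = 0.486 and 0.484).

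**Figure D4:**
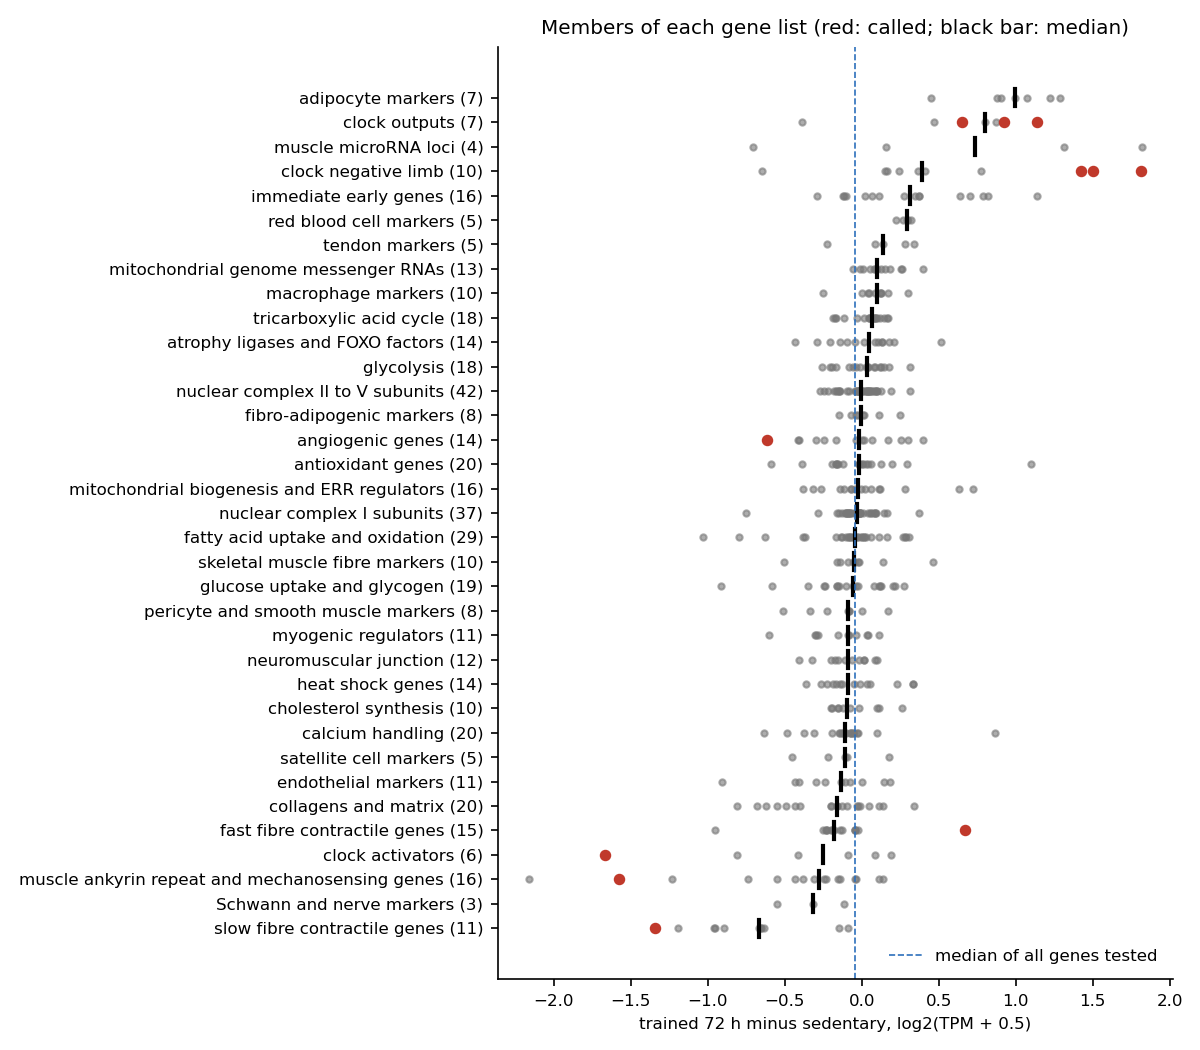
Log2 differences of trained 72 h from sedentary muscle for every tested member of each gene list (grey points), with called genes in red, the median of each list as a black bar and the median of all tested genes, -0.05, as a dashed line. Clock output and adipocyte lists lie to the right at medians of 0.80 and 0.99, and slow fibre genes to the left at -0.67.

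The called genes were then set beside untrained muscle at 72 h, which had the same kind of test to exhaustion and no training. The paper reports better performance of trained mice in such tests, so the amount of running need not be equal. Of the 30 genes 16 were also called between trained and untrained muscle at 72 h, 8 higher and 8 lower, where 42 of 11708 genes (0.359%) were called. This comparison shares the trained libraries with the one above. Untrained 72 h against sedentary muscle, which shares the sedentary libraries, gave 1 call (0.00854%), Cd68, a macrophage gene, and 704 genes at an unadjusted p below 0.05. None of the 30 was called there. Leaving out untrained 72 h replicate 1, 2 or 3, or trained 72 h replicate 2 or 3, changed the 42 calls between trained and untrained muscle to 20, 6, 17, 4 and 20, and Cd68 lost its call without sedentary replicate 1 or 3 or untrained 72 h replicate 1 or 2. Per1 was at a mean of 2.08 TPM in untrained 72 h muscle, beside 2.01 in sedentary and 8.14 TPM in trained muscle. Arntl was at 7.36 TPM, beside 8.28 and 2.29 TPM, and Usp2 at 20.8 TPM, beside 24.6 and 54.7 TPM. Ankrd2 had 48.1 TPM, beside 54.5 and 17.8 TPM, and Tnfrsf12a 11.2 TPM, beside 10.1 and 3.61 TPM. In all of these the untrained mean lay near the sedentary one.

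Not every gene followed that pattern. Myh1 was at 1154 TPM in untrained 72 h muscle and made up 18.9% of the heavy chains there, between 13.1% in sedentary and 22.4% in trained muscle, and its difference between trained and untrained muscle missed the threshold (log2 difference 0.18, adjusted p = 0.498). Mylk4 had a trained minus untrained difference of 0.64 (adjusted p = 0.0837) and Myl3 of -0.84 (adjusted p = 0.145). Ppp1r10, Tcim, Ttpal and Slc40a1 had untrained minus sedentary differences of 0.65, 0.52, 0.52 and -0.36. Their trained minus untrained differences were 0.26, 0.37, 0.19 and -0.34 (limma, adjusted p = 0.521, 0.24, 0.515 and 0.248). Adipocyte markers had a median log2 difference from sedentary muscle of 0.90 in untrained and 0.99 in trained 72 h muscle.

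Against trained muscle at 6 h, 377 genes (3.22%) were called, 9 of the 30 among them. Ciart and Hlf were higher at 72 h, with log2 differences of 2.18 and 0.74 (adjusted p = 0.000355 and 0.00112), as was Ppp1r10. Tnfrsf12a gave the largest difference of the 9, -2.93 (adjusted p = 1.41e-06), from 31.7 TPM at 6 h. Ankrd2 and Arntl were lower at 72 h, with log2 differences of -1.86 and -1.29 (adjusted p = 0.000581 and 0.00147). Over all groups, Per1 was highest at 0 h, with a mean of 19.3 TPM without and 23.8 TPM with training (2 libraries each). Its trained 72 h mean of 8.14 TPM was above both 6 h means, 6.34 TPM without and 4.51 TPM with training. Arntl had its lowest mean of all 7 groups, and Ankrd2, Csrp3 and Tnfrsf12a theirs, in trained 72 h muscle.

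**Figure D5:**
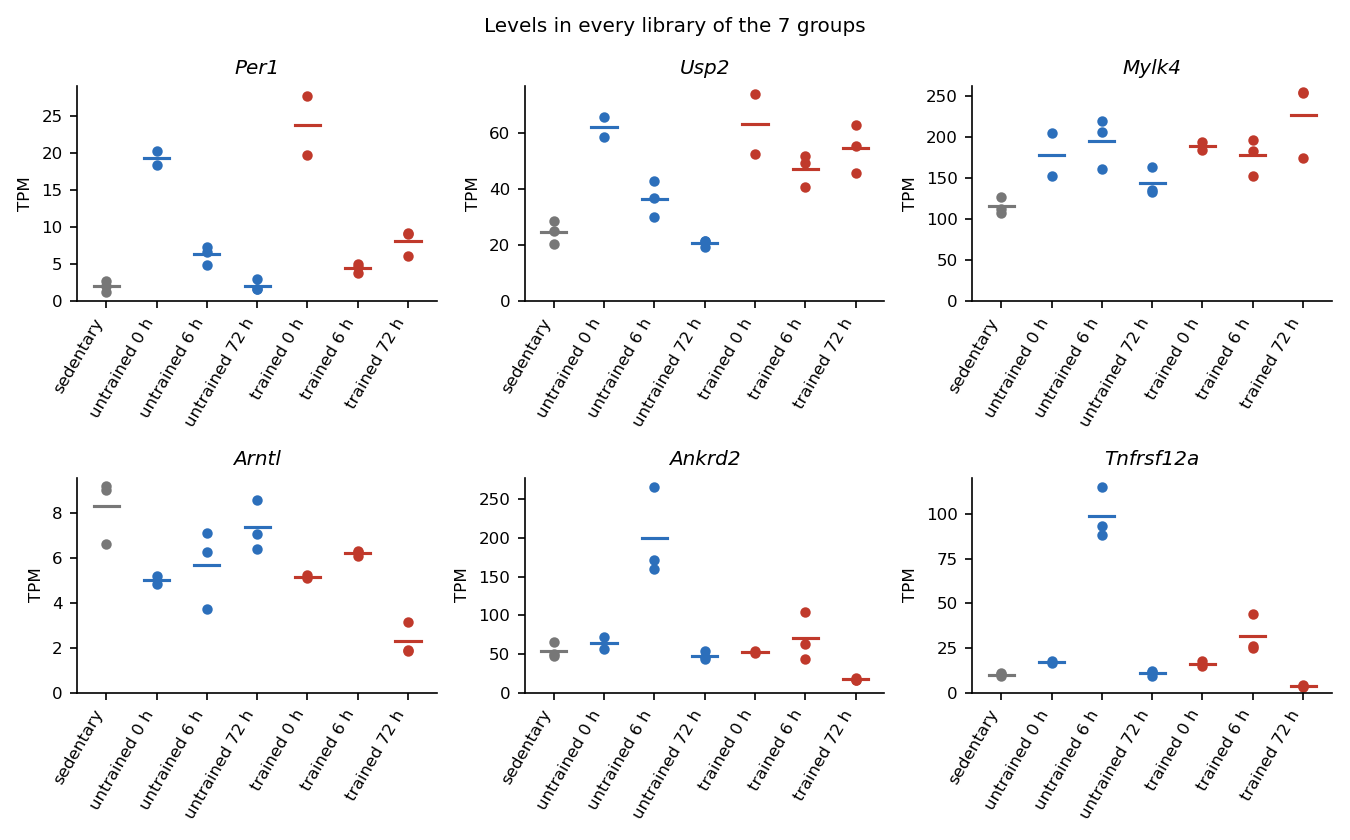
TPM of 6 called genes in every library of the 7 groups, sedentary in grey, untrained in blue and trained in red, with the group mean as a bar (0 h groups hold 2 libraries each). Arntl, Ankrd2 and Tnfrsf12a reach their lowest means in trained 72 h muscle, and Usp2 at 72 h is higher in trained than in untrained libraries.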

How the data were processed

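Bulk RNA-seq of quadriceps was analysed from the TPM values the authors deposited for 53738 gene symbols in 21 libraries. Per the labels and the study's methods, muscle RNA was made into libraries with an unstranded TruSeq kit and sequenced paired-end, reads were mapped to GRCm39 with STAR 2.7.9 and TPM came from Salmon 1.5.0. TPM are scaled to a fixed total and hold no depth, so no counting error can be given. The first columns of untrained 0 h and trained 0 h were identical and were left out, which left 19 columns. Values were transformed to log2(TPM + 0.5), genes averaging 1 TPM or more in the 6 libraries compared were kept, and a mean per group was fitted over all 7 groups with limma 3.58.1 in R 4.3.3 (trended variance, 12 residual degrees of freedom, Benjamini-Hochberg adjustment over all genes tested). Calls needed an adjusted p below 0.05 and a fold of 1.5. Single sums and shares were compared by two-sided exact permutation tests. The fit was tested on simulated data.

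Groups came from the labels, and 0 columns were unassigned. The members and gene lists were chosen with earlier results of these data known. The text names up to 12 called genes with the largest change per direction, here all 30 being named, every tested gene of the clock, slow, fast and mechanosensing lists apart from an item not reported here, up to 4 genes of other lists by smallest p, Klf5, Esrrg, Myh2, Ppargc1a, Fos and Jun, defining markers of cell types, and 5 genes most alike to Per1 and to Arntl. The falls beyond the 12 largest and the rises beyond the 12 largest were named after their values were seen. Of the symbols 50873 matched the GRCm39 annotation and 110 matched through an older symbol. Alternatives changed the pseudocount, filter, scaling, samples, variance model, replicate block and fold threshold, and left out each library in turn. Plots were made in Python 3.11.15 (matplotlib 3.10.9).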

Additional observations from a re-analysis of the deposited data

Results flagged for a closer look

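For 16 of the called genes the effect of trained 72 h muscle differed from that of untrained 72 h muscle by a direct test of the difference (limma, adjusted over 11708 genes), 8 higher and 8 lower in trained muscle. The sedentary libraries drop out of that difference. It rests on the same trained libraries by which these genes were first called, so it is not an independent test. Among clock genes, the trained minus untrained difference in log2(TPM + 0.5) was 2.08 for Ciart (adjusted p = 0.00752), 1.76 for Per1 (adjusted p = 0.00975), 1.36 for Usp2 (adjusted p = 0.00378), 1.12 for Per2 (adjusted p = 0.0159), 0.80 for Hlf (adjusted p = 0.00956) and 0.78 for Tspan4 (adjusted p = 0.0356). Arntl went the other way, at -1.51 (adjusted p = 0.00752). Higher in trained muscle were also Cep85l at 1.14 (adjusted p = 0.0159) and Adh1 at 0.75 (adjusted p = 0.0314).

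Among genes of muscle structure and signalling, the difference was -1.51 for the TWEAK receptor gene Tnfrsf12a (adjusted p = 0.00378), -1.41 for Ankrd2 (adjusted p = 0.0259), -1.28 for Ppp1r27 (adjusted p = 0.0161), -0.97 for Tceal7 (adjusted p = 0.0383) and -0.68 for Arhgap20 (adjusted p = 0.0138). The noncoding Hectd2os and 9430073C21Rik were at -1.15 and -0.64 (adjusted p = 0.00956 and 0.0138). The effect of untrained 72 h muscle against sedentary muscle was 0.05 for Per1, -0.16 for Arntl, -0.17 for Ankrd2 and 0.13 for Tnfrsf12a, and none of the 16 was called there.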

How the results depend on the processing

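The count of 30 calls in trained 72 h against sedentary muscle became 12 without a filter on low values, 48 after quantile normalization, 49 when rescaled without the mitochondrial genome and highest genes, 53 over nuclear protein-coding genes, 17 with only the groups compared (4 of them among the 30), 9 without the 0 h groups, 78 with quality weights, 56 without a fold threshold and 4 by treat, and 0 to 22 with a library left out. The causes were not tested. Against untrained 72 h muscle the 42 calls became 22 without a filter, 26 rescaled, 20 with only the groups compared, 23 without the 0 h groups, 146 with quality weights, 135 without a fold threshold and 6 by treat, and 4 to 40 with a library left out. The split between higher and lower, 31.0% higher as deposited, was 50.0% after median-of-ratios scaling, 57.7% rescaled and 60% over nuclear protein-coding genes. The single call in untrained 72 h muscle became 0 at a mean of 5 TPM, without the 0 h groups and by treat, 3 with only the groups compared, and 0 to 4 with a library left out. Against trained 6 h muscle the 377 calls became 217 at a mean of 5 TPM, 1058 without a fold threshold and 174 by treat, and 318 to 403 with a library left out, and 29.4% higher became 40.3% and 48.5% after median-of-ratios scaling and rescaling. Same-numbered libraries of trained 72 h and sedentary muscle did not deviate together (r = -0.0687, -0.0375 and 0.0434). The other groups were not compared in this way, so a batch shared by replicate number across the series was not tested. With the replicate block there were 12 calls against sedentary muscle, 10 of them among the 30, and 0 in untrained 72 h muscle.

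Among the named genes, 6 changed direction under an alternative, none of them called. After median-of-ratios scaling the log2 difference was 0.0083 for Myoz1, 0.0114 for Myl1, 0.0091 for Mylpf, 0.0303 for Atp2a1, 0.0133 for Xirp2 and 0.0098 for Bag3. Quantile normalization gave 0.0314 for Mylpf, 0.0534 for Atp2a1, 0.0607 for Xirp2 and 0.0459 for Bag3. Rescaling gave 0.0401 for Myoz1, 0.0432 for Myl1, 0.0621 for Atp2a1, 0.0450 for Xirp2 and 0.0414 for Bag3. Nuclear protein-coding genes gave 0.0454 for Myoz1, 0.0485 for Myl1, 0.0462 for Mylpf, 0.0674 for Atp2a1, 0.0504 for Xirp2 and 0.0467 for Bag3, and quality weights 0.0003 for Bag3. With a library left out, the difference ranged from -0.2986 to 1.0784 for Cry1, -0.033 to 0.2593 for Bhlhe40, -0.1626 to 0.0368 for Myl6b, -0.3504 to 0.1256 for Atp2a2, -0.0995 to 0.0015 for Myoz1, -0.0982 to 0.0048 for Myl1, -0.1143 to 0.011 for Mylpf, -0.0607 to 0.0066 for Atp2a1, -0.0782 to 0.0016 for Xirp2, -0.1059 to 0.0341 for Bag3, -0.0883 to 0.1371 for Ppargc1a and -0.097 to 1.0347 for Fos.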

Other observations

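A further 26 genes passed the adjusted threshold at less than 1.5-fold, 9 higher and 17 lower in trained 72 h muscle (limma). Tuba4a, an alpha tubulin, was lower in trained muscle, with a sedentary mean of 565 TPM and a trained mean of 384 TPM (log2 difference -0.56, adjusted p = 0.00917), and Timp3, a metalloproteinase inhibitor, 16.7 and 24.5 TPM (log2 difference 0.54, adjusted p = 0.00917). Syn3, a synapsin gene, had means of 6.12 and 8.98 TPM and Lsmem2 of 11.6 and 8.34 TPM (adjusted p = 0.00917 for each). Timp3 lies inside the span of Syn3 on the opposite strand in the annotation. Whether their exons overlap was not examined, and an unstranded kit cannot assign reads from shared bases by strand. Among genes of metabolism, Ampd1, the muscle AMP deaminase, had means of 386 and 280.2 TPM (log2 difference -0.46, adjusted p = 0.032), Got2, the mitochondrial aspartate aminotransferase, 119 and 151 TPM (log2 difference 0.35, adjusted p = 0.0367), and Por, cytochrome P450 reductase, 4.46 and 6.33 TPM (log2 difference 0.46, adjusted p = 0.032). Rxrg, a retinoid X receptor gene, had means of 22.1 and 15.9 TPM, and Ank1, a muscle ankyrin gene, 254 and 183 TPM (adjusted p = 0.032 and 0.0294). Snrk, an AMPK-related kinase gene, had means of 8.69 and 12.96 TPM (adjusted p = 0.0448). These genes were picked after their values were seen.

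By Pearson's r over the 7 group means of log2(TPM + 0.5), the genes most like Per1 were Gm22661 (0.997), Elac2 (0.992), Pogz (0.981), Gm44845 (0.970) and Sirt1 (0.970). Those most like Arntl were Nt5c3 (0.975), Plekhf2 (0.967), Arhgap24 (0.967), Dhx32 (0.965) and Eng (0.960). These were selected from all genes for their likeness and are a description of 7 points.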
